A study of Mus musculus with 22 samples.

Results

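The 10 genes described here carry out or drive the making and loading of peptides for MHC class I molecules: the peptide transporter genes Tap1 and Tap2, the loading gene Tapbp, the light chain gene B2m, the transactivator gene Nlrc5, the immunoproteasome genes Psmb8, Psmb9 and Psmb10, and the activator genes Psme1 and Psme2. They were found by their symbols, 1 row each, among the 46078 genes of the count table. They were selected on the differences in count between the groups of these same libraries, so those differences are given as a description, with fold changes and errors but without p-values. RNA was sequenced from distal colon of 22 mice. C57BL/6 mice (n = 8, 4 males and 4 females, 14 weeks) were the wild-type controls. Winnie mice (n = 7, 3 males and 4 females, 14 weeks) have a mutant Muc2, the gene of the main gut mucin, and become colitic without any treatment. Winnie-Prolapse mice (n = 7, 4 males and 3 females) are Winnie mice with rectal prolapse and were 18 weeks old, so that prolapse and age cannot be told apart. The mutation is in the germline, and no group received a treatment.

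MHC class I molecules show peptides from inside the cell to CD8 T cells. Proteins are cut by the proteasome, the peptides are pumped into the endoplasmic reticulum by the TAP1 and TAP2 pair, and tapasin (Tapbp) holds the empty class I molecule, made of a heavy chain and beta-2 microglobulin (B2m), beside the pump until a peptide fits. Under interferon-gamma, cells replace the constitutive catalytic subunits PSMB5, PSMB6 and PSMB7 with PSMB8, PSMB9 and PSMB10 to form the immunoproteasome, PSME1 and PSME2 form its PA28 cap, and NLRC5 drives transcription of class I genes. In the gut, epithelial cells and the leukocytes of the mucosa both make this machinery.

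In GENCODE M21 on GRCm38, 4 of the genes lay side by side within 34335 bases of chromosome 17, in the class II region of the MHC: Psmb9 (34181987 to 34187764, minus strand), Tap1 (34187553 to 34197225, plus strand), Psmb8 (34197721 to 34201454, plus strand) and Tap2 (34203527 to 34216321, plus strand). The annotated Psmb9 and Tap1 models overlapped by 212 exon bases on opposite strands, and 495 bases separated Tap1 from Psmb8. Tapbp lay on the same chromosome at 33915899 to 33929292 and shared 149 exon bases of the same strand with Zbtb22, which had a mean of 49.7 CPM. Psme1 and Psme2 were neighbours on chromosome 14, 5911 bases apart. Psmb10 and Nlrc5 were on chromosome 8 and B2m on chromosome 2.

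RefSeq promoter windows on GRCm38.p6, from 250 bases before to 50 bases from the start site on, were found for 8 of the 10 genes. Tap2 and Nlrc5 had no window in the table. The Tap1 and Psmb9 starts face away from each other, and their windows shared 275 bases. The Tap1 window, at chr17:34187306-34187605 on the plus strand, is shown because both genes use it, with the shared bases in capitals.

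Tap1: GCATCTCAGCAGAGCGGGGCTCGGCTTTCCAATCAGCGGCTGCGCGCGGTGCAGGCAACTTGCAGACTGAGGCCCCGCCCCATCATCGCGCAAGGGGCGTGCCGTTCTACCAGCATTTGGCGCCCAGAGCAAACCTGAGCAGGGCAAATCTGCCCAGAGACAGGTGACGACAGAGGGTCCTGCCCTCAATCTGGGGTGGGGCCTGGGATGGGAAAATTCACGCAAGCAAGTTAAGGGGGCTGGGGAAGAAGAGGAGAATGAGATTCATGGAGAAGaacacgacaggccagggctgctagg

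The windows were searched on both strands for GAAANNGAAA (interferon-stimulated response element), TTCNNNGAA (gamma-activated site) and the NF-kB site. No match of one motif overlapped a match of another in the windows shown. The first was found in 2 of 8 genes, B2m (offsets -139 to -130 from the start base) and Psme1 (offsets 9 to 18), and in 3.44% of all 32851 windows. The second was found in 1 of 8, Psmb8 (offsets -97 to -89), and in 8.30% of all windows, and the NF-kB site in 1 of 8, B2m (offsets -126 to -117), and in 8.46%. The Psmb5 and Psmb6 windows held no match. The windows with a match are printed with the matched bases in capitals. They lie at chr2:122147437-122147736 (B2m), chr14:55578244-55578543 (Psme1) and chr17:34197945-34198244 (Psmb8), all on the plus strand.

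B2m: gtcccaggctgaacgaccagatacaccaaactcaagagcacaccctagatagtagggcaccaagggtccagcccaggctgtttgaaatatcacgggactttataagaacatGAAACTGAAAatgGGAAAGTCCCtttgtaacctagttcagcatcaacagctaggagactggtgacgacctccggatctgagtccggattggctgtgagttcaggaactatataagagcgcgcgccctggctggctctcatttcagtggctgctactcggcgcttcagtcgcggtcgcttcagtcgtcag

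Psme1: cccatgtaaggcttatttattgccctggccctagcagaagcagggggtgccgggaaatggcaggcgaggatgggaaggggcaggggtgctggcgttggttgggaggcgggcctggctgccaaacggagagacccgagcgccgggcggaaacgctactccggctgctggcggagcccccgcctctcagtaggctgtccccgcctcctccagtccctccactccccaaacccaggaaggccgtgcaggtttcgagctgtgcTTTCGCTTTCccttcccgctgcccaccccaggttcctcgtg

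Psmb8: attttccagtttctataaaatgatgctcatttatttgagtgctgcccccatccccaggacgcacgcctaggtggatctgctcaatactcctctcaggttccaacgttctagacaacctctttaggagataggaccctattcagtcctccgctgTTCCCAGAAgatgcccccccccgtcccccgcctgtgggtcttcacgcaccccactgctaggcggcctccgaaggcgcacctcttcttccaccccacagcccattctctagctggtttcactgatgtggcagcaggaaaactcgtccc

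Libraries held 24.8 to 36.3 M counts, and levels are given as CPM, the count scaled to the library total, on which 3 counts, the upper limit for a gene with no count, equal 0.0825 to 0.121 CPM. Winnie-Prolapse replicate 6 had 18.0% of its counts in 6 milk protein genes, against at most 0.00542% in the other libraries. Calls of edgeR's quasi-likelihood test needed an adjusted p under 0.001 together with a 1.5-fold change. The 10 epithelial markers summed to medians of 14793, 14964 and 12428 CPM in C57BL/6, Winnie and Winnie-Prolapse. In Winnie-Prolapse against C57BL/6, 0 of the 10 were called higher and 2 lower, beside 9.84% and 8.47% of all genes. The 10 markers had a median log2 fold change of 0.17 (-2.98 to 0.87). The called genes were the colonocyte genes Slc26a3 and Car1, with means of 411 against 2639 CPM and 233 against 1994 CPM. Krt20, a keratin of differentiated colonocytes, was highest at 0.87 and not called. Their part in the levels of the 10 genes was not tested. Squamous markers were at a median of 229 CPM (1.48 to 2594) in Winnie-Prolapse against 2.53 CPM in C57BL/6.

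The transporter gene Tap1 lay at 18.98 CPM in the lowest, 25.0 CPM in the median and 32.7 CPM in the highest C57BL/6 library. In Winnie it ranged from 22.9 CPM through a median of 199.6 CPM to 285 CPM, and in Winnie-Prolapse from 176 through 215 to 361 CPM. All 7 Winnie-Prolapse libraries and 6 of 7 Winnie libraries were above every C57BL/6 library. Against C57BL/6 the log2 fold change came to 2.76 ± 0.39 (SE) for Winnie and to 3.38 ± 0.15 (SE) for Winnie-Prolapse. Tap2, whose product pairs with that of Tap1, started higher and changed less, from a median of 39.1 CPM (33.6 to 42.2) in C57BL/6 to 84.1 CPM (36.4 to 106) in Winnie and 94.3 CPM (85.6 to 120) in Winnie-Prolapse. Its log2 fold changes were 1.10 ± 0.18 (SE) and 1.48 ± 0.09 (SE). Per kilobase of exon, Tap1 was at 0.448 ± 0.0726 (SD, n = 8) of the Tap2 level in C57BL/6, at 1.27 ± 0.533 (SD, n = 7) in Winnie and at 1.66 ± 0.288 (SD, n = 7) in Winnie-Prolapse. Tap1 was thus below Tap2 in C57BL/6 and above it in Winnie-Prolapse, as it also was with the length of the principal transcript (0.756 and 2.80).

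Tapbp, which tethers class I molecules to the transporter, differed least of the 10 genes. Its medians were 258 CPM (240 to 293) in C57BL/6, 337 CPM (230 to 457) in Winnie and 426 CPM (284 to 485) in Winnie-Prolapse. This was the only gene of the 10 whose Winnie-Prolapse libraries overlapped those of C57BL/6, through replicate 6 (284 against 293 CPM), the library with milk protein counts. With those 6 genes left out of the library totals replicate 6 was at 346 CPM, and with TMM factors at 340.2 CPM, and Tapbp no longer overlapped. Log2 fold changes were 0.48 ± 0.13 (SE) and 0.70 ± 0.11 (SE). B2m, the light chain of every class I molecule, had the highest level per kilobase in each group. It lay at a median of 405 CPM (291 to 474) in C57BL/6, 919 CPM (385 to 2065) in Winnie and 1816 CPM (1033 to 2198) in Winnie-Prolapse, with log2 fold changes of 1.64 ± 0.28 (SE) and 2.25 ± 0.18 (SE).

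Nlrc5, the class I transactivator, had the largest fold changes of the 10 genes and the lowest level per kilobase. It was at 1.74 CPM in the lowest, 2.63 CPM in the median and 6.64 CPM in the highest C57BL/6 library. In Winnie it lay between 4.86 and 85.2 CPM around a median of 40.3 CPM, and in Winnie-Prolapse between 50.8 and 110 CPM around a median of 73.1 CPM. Winnie replicate 5 lay inside the C57BL/6 range and none of the Winnie-Prolapse libraries did. On the log2 scale this was a fold change of 3.88 ± 0.50 (SE) for Winnie and of 4.61 ± 0.27 (SE) for Winnie-Prolapse. An antisense RNA, 9330175E14Rik, shared 78 exon bases with it at a mean of 3.17 CPM, and the strand setting of the counting was not stated.

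**Figure D1:**
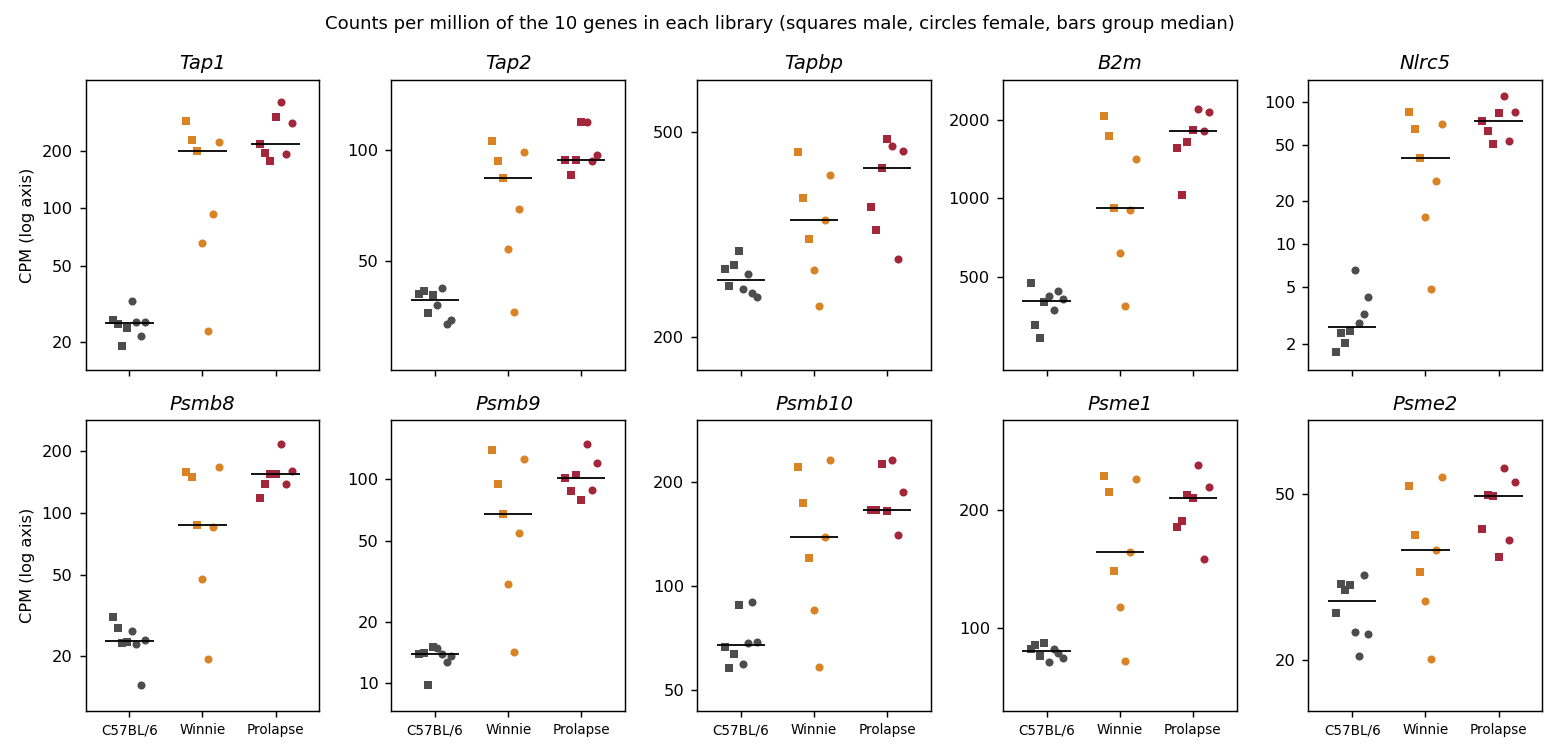
CPM (log axes, a separate range per panel) of each gene in the 8 C57BL/6, 7 Winnie and 7 Winnie-Prolapse libraries, squares for males and circles for females, with a bar at the group median. Winnie libraries spread from the C57BL/6 range up to the Winnie-Prolapse range, as for Tap1 from 22.9 to 285 CPM.

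The 3 immunoproteasome catalytic subunits changed to different degrees. Psmb8, the immune counterpart of Psmb5, went from a median of 23.8 CPM (14.5 to 31.0) in C57BL/6 to 87.5 CPM (19.5 to 168) in Winnie and 154 CPM (118 to 217) in Winnie-Prolapse. Psmb9, the counterpart of Psmb6, went from 13.9 CPM (9.74 to 14.97) to 67.4 CPM (14.2 to 139) and 101 CPM (78.8 to 150). Psmb10, the counterpart of Psmb7, was the most abundant of the 3 in C57BL/6 and went from 67.4 CPM (57.9 to 89.4) to 138 CPM (58.2 to 231) and 166 CPM (140 to 231). For each of them the Winnie-Prolapse libraries were all above the C57BL/6 range, and the lowest Winnie library was inside it (for Psmb10 also the next lowest). Log2 fold changes in Winnie-Prolapse were 2.76 ± 0.15 (SE) for Psmb8, 3.05 ± 0.14 (SE) for Psmb9 and 1.46 ± 0.13 (SE) for Psmb10. In Winnie they were 2.17 ± 0.35, 2.57 ± 0.36 and 1.16 ± 0.25 (SE). The constitutive subunits Psmb5, Psmb6 and Psmb7, tested with all other genes, were not called in any group comparison. Their log2 fold changes in Winnie-Prolapse were 0.37 ± 0.10, 0.39 ± 0.10 and 0.39 ± 0.09 (SE), with edgeR adjusted p of 0.00643, 0.00356 and 0.00173. In Winnie they were 0.09 ± 0.11, 0.19 ± 0.10 and 0.18 ± 0.09 (SE), with edgeR adjusted p of 0.544, 0.185 and 0.129.

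**Figure D2:**
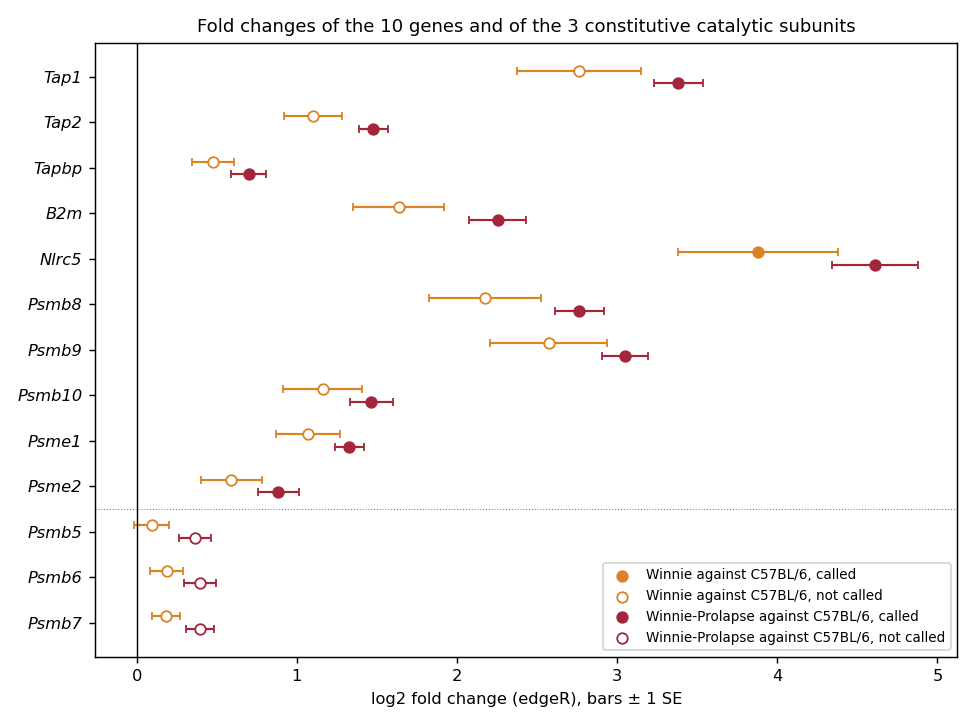
Log2 fold changes (edgeR, bars ± 1 SE) of the 10 genes and, under the dotted line, of the constitutive catalytic subunits, for Winnie and Winnie-Prolapse against the same 8 C57BL/6 libraries. Filled points were called. The constitutive subunits lie at or below 0.39 and Nlrc5 at 3.88 and 4.61.

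Set against its constitutive counterpart per kilobase of exon, Psmb8 made up 16.4 ± 3.66% (SD, n = 8) of the Psmb8 and Psmb5 pair in C57BL/6. The share was 41.2 ± 14.9% (SD, n = 7) for Winnie libraries and 50.1 ± 5.66% (SD, n = 7) for Winnie-Prolapse libraries. Psmb9 made up 7.97 ± 1.37%, 28.1 ± 12.3% and 34.8 ± 5.99% (SD) of its pair with Psmb6. Psmb10 was already at 62.3 ± 3.48% (SD) of its pair with Psmb7 in C57BL/6 and at 74.2 ± 8.10% and 77.4 ± 4.02% (SD) in Winnie and Winnie-Prolapse. In every Winnie-Prolapse library all 3 shares were above the highest C57BL/6 share. These levels of RNA depend on the length given to a gene: with the principal transcript in place of all exons, the C57BL/6 shares were 28.8%, 9.09% and 42.3%, and the Winnie-Prolapse shares 67.4%, 38.1% and 60.4%. Exon models of Psmb7 shared 405 bases with Nek6 on the other strand.

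**Figure D3:**
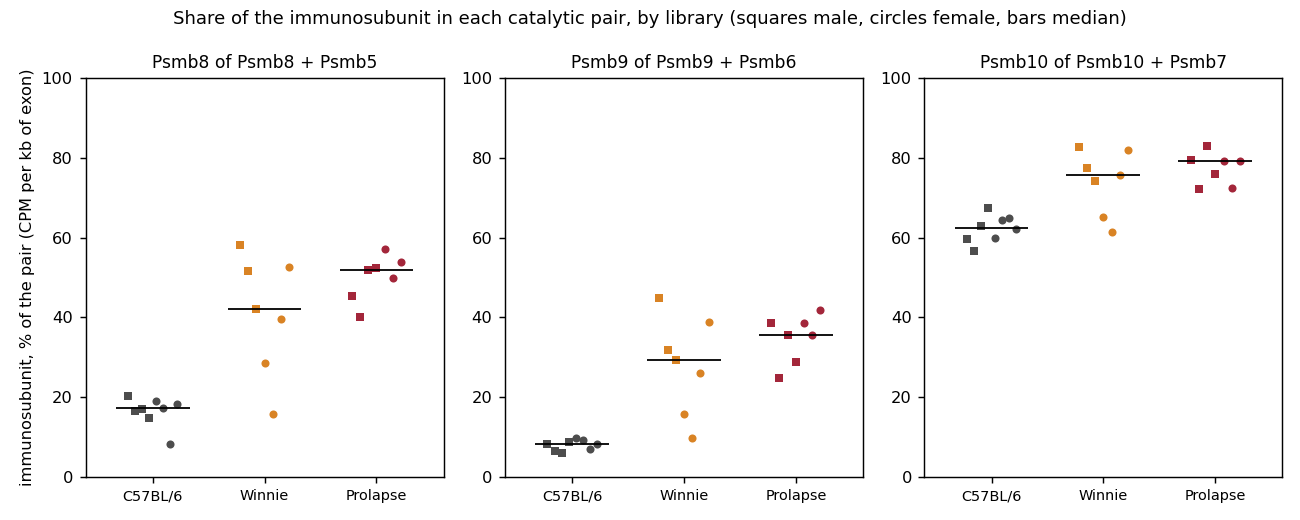
Share of the immunosubunit (percent of the summed CPM per kilobase of exon of the pair) in each library, squares for males and circles for females, with a bar at the group median. Psmb8 and Psmb9 shares rise from C57BL/6 means of 16.4% and 7.97% to Winnie-Prolapse means of 50.1% and 34.8%, and Psmb10 starts at 62.3%.

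Psme1 and Psme2 encode the alpha and beta subunits of the PA28 cap. Psme1 lay in a narrow band in C57BL/6, from 81.7 through a median of 87.1 to 91.2 CPM, and ranged from 82.2 to 245 CPM (median 156) in Winnie and from 150.0 to 260.3 CPM (median 215) in Winnie-Prolapse. Its log2 fold changes were 1.07 ± 0.20 (SE) and 1.33 ± 0.09 (SE). Psme2 had medians of 27.7 CPM (20.4 to 31.9), 36.9 CPM (20.1 to 55.0) and 49.7 CPM (35.3 to 57.9), with log2 fold changes of 0.59 ± 0.19 (SE) and 0.88 ± 0.13 (SE). Reads of Psme2 are uncertain, because the near-copy Psme2b, annotated at chromosome 11, 48945354 to 48946190, held more counts than Psme2 itself. Psme2b had means of 76.4 ± 10.9 CPM (SD, n = 8), 120 ± 42.5 CPM (SD, n = 7) and 152 ± 25.9 CPM (SD, n = 7). With both rows summed, the log2 fold changes of Psme2 were 0.71 in Winnie and 1.03 in Winnie-Prolapse.

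Ordered by CPM per kilobase of all exons in C57BL/6, B2m came first at 455 ± 70.0 (SD, n = 8), followed by Tapbp at 71.9 ± 5.12, Psmb10 at 41.2 ± 7.09, Psme1 at 39.3 ± 1.47, Psme2 at 15.2 ± 2.40, Tap2 at 10.1 ± 0.872, Psmb8 at 7.14 ± 1.42, Tap1 at 4.53 ± 0.732, Psmb9 at 3.68 ± 0.453 and Nlrc5 at 0.376 ± 0.187. Psmb10 and Psme1 did not differ beyond their spread. In Winnie-Prolapse B2m was again first at 2031 ± 459 and Nlrc5 last at 8.71 ± 2.45 (SD, n = 7), while Psmb8 at 45.6 ± 9.24, Tap1 at 44.8 ± 12.7 and Psmb9 at 28.5 ± 6.57 stood above Tap2 at 26.6 ± 3.57 and Psme2 at 26.5 ± 4.70. Neighbours within each other's spread there were Tapbp (110 ± 21.8), Psmb10 (107 ± 19.98) and Psme1 (93.2 ± 16.4), Psmb8 and Tap1, and Psmb9, Tap2 and Psme2. This order depended on the length used. With the principal transcript, Psme1 stood above Psmb10 in C57BL/6 (78.0 ± 2.92 against 53.5 ± 9.22, SD, n = 8), Psmb8 above Tap2 and Psmb9 above Tap1, the last 2 pairs within each other's spread. In Winnie-Prolapse Psme1 then came second, and Psmb9 (77.3 ± 17.8), Psme2 (48.5 ± 8.62) and Tap2 (29.2 ± 3.92, SD, n = 7) were apart beyond their spread.

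The calls answered which of these genes passed the limits of the study in each comparison. In Winnie-Prolapse against C57BL/6, 10 of 10 were called higher, where 9.84% of the 17397 genes tested were. Groups did not overlap for 9 of 10, against 6.5% of genes higher without overlap, and for 10 of 10 without the milk protein genes or with TMM factors. In Winnie against C57BL/6, 1 of 10 was called, Nlrc5, where 0.0868% of 17289 genes were called higher. At an adjusted p under 0.05 and 1.5-fold 9 of 10 were, with Tapbp under the fold limit, against 7.42% of genes. In Winnie-Prolapse against Winnie, 0 of 10 were called by edgeR, by DESeq2 or at an unadjusted p under 0.05. Of all genes, 0% of 17041 were called higher by edgeR and 1.65% by DESeq2, and 27.8% had an unadjusted p under 0.05. The 10 log2 fold changes lay between 0.23 and 0.74 with a median of 0.43. The median over the 10 genes was 1.40 in Winnie and 1.87 in Winnie-Prolapse against C57BL/6, beside medians over all genes of -0.01 in both. Both comparisons share the C57BL/6 libraries. Since these contrasts named the genes, nothing further is read from the counts.

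The Winnie count rested on single libraries. It was 8 of 10 without Winnie replicate 5, 3 without Winnie replicate 4, and 0 when any of the other libraries was left out. Without Winnie replicate 5, 2.5% of all genes were called higher. DESeq2 called 8, where it called 2.63% of all genes higher, and limma-voom 0. In Winnie-Prolapse against C57BL/6, 10 of 10 were called without any one library, the library with milk protein counts included.

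The same Winnie libraries were lowest for every one of the 10 genes, while the order of the other 5 varied between genes. Replicate 5 had the lowest level of the 7 for 10 of 10 genes, and replicate 4 the second lowest for 10 of 10. Replicate 5 lay above the C57BL/6 range for 0 genes, inside it for 8 and below it for 2, Tapbp and Psme2. Replicate 4 was above the range for 7, and the other 5 libraries for 10 of 10. Relative to the C57BL/6 mean, Tap1 was at 0.92-fold and Nlrc5 at 1.52-fold in replicate 5, at 2.66-fold and 4.83-fold in replicate 4, and at 11.5-fold and 26.7-fold in replicate 1. In Winnie-Prolapse every library was above the C57BL/6 range for 10 of 10 genes, except replicate 6 with 9.

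**Figure D4:**
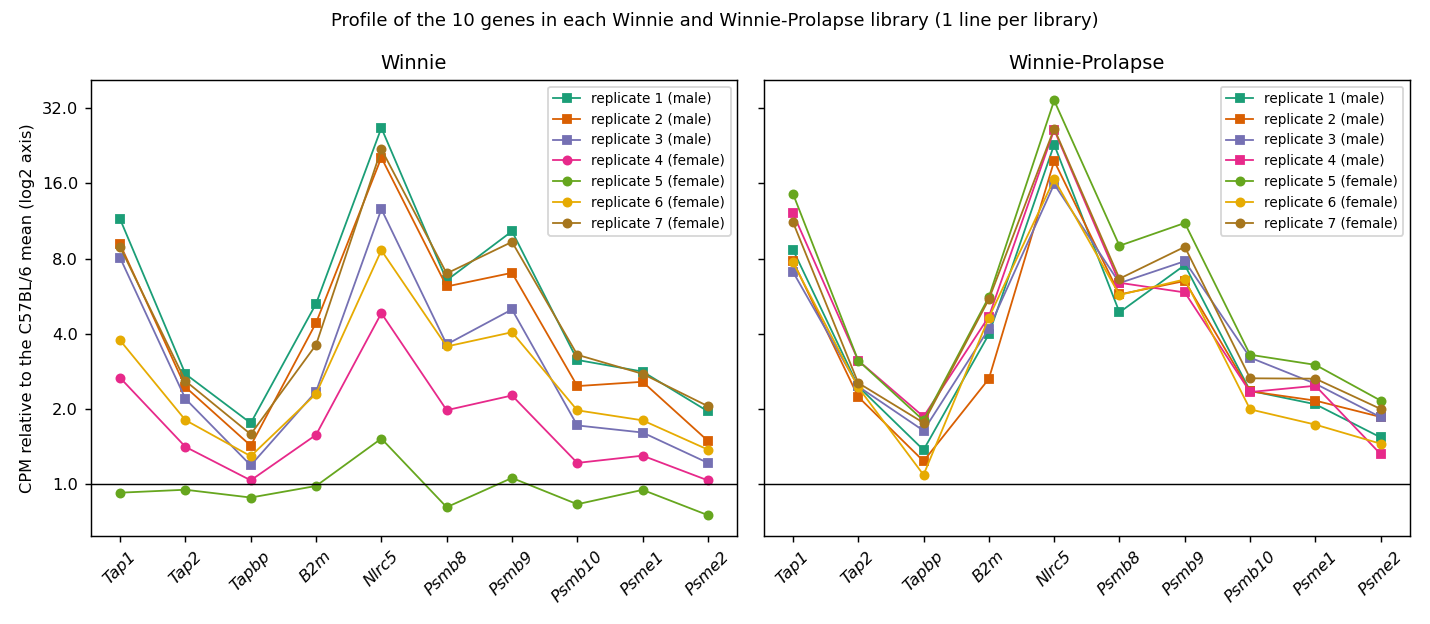
CPM of each gene relative to its C57BL/6 mean (log2 axis, black line at 1) in each Winnie (left) and Winnie-Prolapse (right) library, 1 line per library, squares for males and circles for females. The Winnie lines start with replicate 5 near 1, followed by replicate 4, and reach up to replicate 1, where Nlrc5 reaches 26.7-fold. The Winnie-Prolapse lines lie closer together and cross.

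Variation within a group was not used to name the genes, but the Winnie libraries spread from the C57BL/6 range up to the Winnie-Prolapse range. Genes selected on group differences can vary together along that spread, so correlations within Winnie are not independent of the selection. Over the 45 pairs of the 10 genes, Pearson r of log2 CPM in Winnie was 0.890 to 0.998 with a median of 0.97 (n = 7 libraries). All 45 had an adjusted exact permutation p under 0.05, over the 135 correlations of the 3 groups, and 41 by Spearman rho. The pair Tap1 and Tap2 had r = 0.99 (exact permutation p = 0.000397, adjusted 0.00335) and rho = 0.96 (exact permutation p = 0.00278, adjusted 0.0134). Without the 2 libraries farthest from the median, r lay between 0.52 and 0.998, lowest for Tap1 and Psme2. With each library left out in turn, 37 to 45 pairs passed. In Winnie-Prolapse the median r was 0.63 and 4 of 45 passed (3 by rho), the closest being Tap1 and Nlrc5 (r = 0.96, exact permutation p = 0.000397, adjusted 0.00335, rho = 0.96, 0.93 without the 2 farthest libraries). In C57BL/6 the median r was 0.10 and 0 of 45 passed. Whether these correlations differ between groups was not tested.

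All genes of a library share its depth and tissue makeup, so other genes were set beside these. Unlike the 10, those other genes were not selected on differences between the groups. In Winnie, r of Tap1 with the 9 others was 0.89 to 0.99, while its median r with 13587 other genes was 0.06, and 2.78% of them reached the lowest of the 9. In C57BL/6 the 9 had a median r of 0.34 and 95.9% of other genes reached the lowest, and in Winnie-Prolapse 0.70 and 52.7%. Outside the 10 genes, the 5 most like their mean over 22 libraries, after the group means were taken off, included Il18bp (r = 0.95), Zbp1 (0.95), Igtp (0.95) and H2-D1 (0.94), among 13597 genes.

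Summed leukocyte marker levels were higher in Winnie and Winnie-Prolapse libraries by their medians. The 5 leukocyte markers summed to medians of 81.4 CPM (32.6 to 239), 153 CPM (97.9 to 245) and 276 CPM (140 to 416), and the 8 T and NK cell markers to 6.79, 15.8 and 27.8 CPM. The 7 myeloid markers summed to medians of 44.6, 72.8 and 241 CPM, and the 4 B and plasma cell markers to 216, 767 and 1168 CPM. The rise of that last sum was not shared by all 4 genes. Against C57BL/6 their median log2 fold change was 0.07 (-0.10 to 2.09) in Winnie and 0.27 (-0.0015 to 2.82) in Winnie-Prolapse. In Winnie-Prolapse against C57BL/6, 2 of 5 leukocyte, 5 of 6 tested T and NK cell, 5 of 7 myeloid and 1 of 4 B and plasma cell markers were called higher. Of all genes, 9.84% were called higher in this comparison and 8.47% lower. In Winnie against C57BL/6 edgeR called 0 of the 22 tested in these lists (0.0868% of all genes higher) and DESeq2 7 of 24 (2.63%). An unadjusted p under 0.05 was found for 15 of the 22, beside 39.9% of all genes. In Winnie-Prolapse against Winnie edgeR called 0 of 24 (0% of all genes higher) and DESeq2 0 (1.65%). There 9 of 24 had an unadjusted p under 0.05, beside 27.8% of all genes. Smooth muscle markers summed to medians of 7309, 2870 and 1957 CPM, with 5 of 5 genes called lower in Winnie-Prolapse against C57BL/6 (8.47% of all genes). Enteric neuron and glia markers summed to medians of 45.8, 15.9 and 13.1 CPM, with 5 of 6 called lower in the same comparison. In bulk RNA, fewer cells of a type and less RNA per cell cannot be told apart. Within Winnie, replicate 5 had the lowest T and NK (9.75 CPM), B and plasma (343 CPM) and myeloid (39.3 CPM) sums, but 122 CPM of leukocyte markers, above replicates 3 and 6. Their part in the levels of the 10 genes was not tested, beyond the correlation with Ptprc, the pan-leukocyte gene, across the libraries of a group.

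That correlation and the one with Ifng, the gene of interferon-gamma, were computed for 50 pairs, and 0 had an adjusted exact permutation p under 0.05 by r or rho. The median count of Ifng was 0 in C57BL/6 and 11 and 86 in the Winnie and Winnie-Prolapse groups, at means of 0.0084, 0.65 ± 0.71 and 4.28 ± 3.17 CPM (SD), and was not correlated in C57BL/6. In Winnie all 10 genes had a positive r with Ifng, from 0.65 (Psme2) to 0.85 (B2m), and 7 had an unadjusted exact permutation p under 0.05, beside 23.8% of 13587 other genes. As the 10 genes were closely correlated in Winnie, these are not separate observations. For B2m, r was 0.85 (exact permutation p = 0.0173, adjusted 0.175), rho 0.89 (exact permutation p = 0.0123, adjusted 0.300), and r 0.86 without the 2 farthest libraries. With Ptprc in Winnie, r was 0.40 to 0.60 for the 10 genes and 0 had an unadjusted exact permutation p under 0.05 (4.15% of other genes). In Winnie-Prolapse r with Ptprc was -0.35 to 0.74, again with 0 of 10 (7.07%). In C57BL/6 it was -0.75 to 0.85, and 3 of 10 had an unadjusted exact permutation p under 0.05 (9.03% of other genes): Tap1 (r = 0.85, exact permutation p = 0.00655, adjusted 0.175, 0.66 without the 2 farthest libraries), Nlrc5 (r = 0.83, exact permutation p = 0.0122, adjusted 0.175, 0.12 without them) and, in the other direction, Psme2 (r = -0.75, exact permutation p = 0.0297, adjusted 0.187, -0.83 without them). In Winnie-Prolapse r with Ifng ranged from 0.03 to 0.75, with 1 of 10 at an unadjusted exact permutation p under 0.05 (4.92% of other genes), and from -0.82 to 0.63 without the 2 farthest libraries.

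Sex was tested over all 22 libraries. In males against females with group as a covariate, edgeR called 0 of 10, where 0.0658% of 18236 genes were called, and DESeq2 called 0, where it called 0.0561%. The log2 differences lay between -0.12 and 0.16, and the lowest unadjusted p was 0.436. The difference of Winnie from C57BL/6 did not pass the interaction test with sex for any of the 10 (0% of 18911 genes called by edgeR, and 0 of 10 also by DESeq2, which called 0.57% of genes). An unadjusted p under 0.05 was found for 2 of 10, Nlrc5 and Tap1, beside 13.1% of all genes, so that the count was near that background. For Nlrc5 the interaction estimate, male less female, was 1.96 ± 0.76 (SE) on the log2 scale (edgeR adjusted p = 0.305) and did not pass. It lay at 1.74 to 2.46 CPM in male and 2.79 to 6.64 CPM in female C57BL/6 libraries, and at 40.3 to 85.2 CPM in male and 4.86 to 70.0 CPM in female Winnie libraries. For Tap1 it was 1.28 ± 0.61 (SE) (edgeR adjusted p = 0.379). Both low Winnie libraries, replicates 4 and 5, were female. For Winnie-Prolapse 0 of 10 had an unadjusted interaction p under 0.05, beside 5% of all genes. The 10 interaction estimates had a median of -0.29 (-0.66 to 0.57) for Winnie-Prolapse and of 0.35 (-0.08 to 1.96) for Winnie. The male less female difference over all libraries is an average over the groups.

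The rest of the pathway was described through 69 other genes in 7 lists, tested with all genes. In Winnie-Prolapse against C57BL/6, 27 of the 68 tested were called higher and 0 lower, where 9.84% of all genes were called higher and 8.47% lower. Rfxank, a subunit of a transcription factor of MHC genes, was named after its values were seen. Just short of a lower call, it was at -0.71 ± 0.15 (SE, edgeR adjusted p = 0.00105) and a mean of 24.7 against 42.8 CPM, with no overlap. It was called lower by DESeq2 and limma-voom, without TMM, with sex as a covariate, at an adjusted p under 0.05, with bias-adjusted quasi-likelihood and without Winnie-Prolapse replicate 3. In Winnie against C57BL/6 edgeR called 0 of 67. An unadjusted p under 0.05 was found for 43 of them, beside 39.9% of all genes, DESeq2 called 16 higher (2.63% of all genes) and edgeR without Winnie replicate 5 called 15 (2.5%). In Winnie-Prolapse against Winnie edgeR called 0 of 68, 26 had an unadjusted p under 0.05, beside 27.8% of all genes, and DESeq2 called 1 (1.65% of all genes).

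The class I heavy chains, which bind the peptide and pair with B2m, were all higher in Winnie-Prolapse, with a median log2 fold change of 1.73. Of these genes 7 of 7 were called, where 9.84% of all genes were called higher. H2-K1 had a mean of 825 ± 82.9 CPM (SD, n = 8) in controls and reached 1726 ± 322 CPM (SD, n = 7) with prolapse, so that it rose by 1.16 ± 0.14 (SE, edgeR adjusted p = 8.36e-06) on the log2 scale. H2-D1 rose by 1.73 ± 0.12 (SE, edgeR adjusted p = 4.61e-08) and H2-Q4 by 2.29 ± 0.11 (SE, edgeR adjusted p = 2.20e-09), while H2-T23, the mouse Qa-1 gene, rose by 0.64 ± 0.11 (SE, edgeR adjusted p = 0.000213). Without TMM scaling and without Winnie-Prolapse replicate 7, H2-T23 was at 0.56 and 0.55 and not called. Heavy chain genes are near-copies, and how shared reads were counted was not stated.

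Of the other loading complex and trimming genes 4 of 6 were called higher in Winnie-Prolapse (9.84% of all genes), with a median of 1.01. Tapbpl, a relative of tapasin that edits the bound peptide, rose by 1.43 ± 0.13 (SE, edgeR adjusted p = 7.07e-07), Calr, a chaperone of the loading complex, by 1.14 ± 0.11 (SE, edgeR adjusted p = 1.23e-06) and Pdia3, its thiol oxidoreductase, by 0.89 ± 0.09 (SE, edgeR adjusted p = 1.37e-06). Canx, the chaperone of newly made heavy chains, was at 0.38 ± 0.10 (SE, edgeR adjusted p = 0.00466), under the fold limit.

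The rest of the proteasome had smaller fold changes than the immunosubunits, which were selected on these contrasts, and the difference was not tested. In Winnie-Prolapse 2 of 11 other core subunits, 3 of 17 genes of the 19S regulatory particle and 3 of 8 tested activators and assembly factors were called higher, with median log2 fold changes of 0.44, 0.44 and 0.41 and 0 called lower. Of all genes 9.84% were called higher in this comparison, and nothing is read from counts this small. Psmb2 and Psmb3, non-catalytic core subunits, rose by 0.69 ± 0.09 and 0.68 ± 0.09 (SE, edgeR adjusted p = 1.64e-05 and 1.75e-05), whereas Psmb1 was at 0.17 ± 0.07 (SE, edgeR adjusted p = 0.0570) and Psma1 at 0.55 ± 0.08 (SE, edgeR adjusted p = 4.40e-05), under the fold limit. In the 19S particle, which unfolds substrates, Psmd3 rose by 0.83 ± 0.11, Psmd14, its deubiquitinase, by 0.71 ± 0.08 and Psmd1 by 0.71 ± 0.10 (SE), and Psmd2 and Psmc3 were at 0.53 and 0.57. Pomp, which helps assemble the core, rose by 0.75 ± 0.11 (SE, edgeR adjusted p = 3.95e-05), Psme3, the nuclear activator, by 0.65 ± 0.12 and Psme4, another activator, by 0.60 ± 0.11 (SE). Psme3 was lost without TMM scaling (0.59, edgeR adjusted p = 0.00170) and Psme4 without TMM scaling or any of 6 libraries (0.53 to 0.57).

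Of 16 interferon signalling genes, 8 were called higher in Winnie-Prolapse and 0 lower, where 9.84% of all genes were called higher and 8.47% lower. The median log2 fold change was 0.56 over the 15 genes without Ifng, whose C57BL/6 libraries held at most 1 count. In Winnie-Prolapse against C57BL/6 Irf1, a factor that acts on class I promoters, rose by 1.38 ± 0.13 (SE, edgeR adjusted p = 1.44e-06), and Socs1, a feedback inhibitor, by 4.40 ± 0.27 (SE, edgeR adjusted p = 1.22e-08), from 2.68 to 53.3 CPM. Neither interferon-gamma receptor gene was called: Ifngr1 was at -0.44 ± 0.14 (SE, edgeR adjusted p = 0.0125) and Ifngr2 at -0.20 ± 0.15 (SE, edgeR adjusted p = 0.285), both at 156 CPM or more in every library. At an adjusted p under 0.05 and 1.5-fold, Socs1 (1.79 ± 0.48, SE, edgeR adjusted p = 0.0363) and Ifng were the only genes of the 7 lists that were higher in Winnie-Prolapse than in Winnie, where 4.27% of all genes were.

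**Figure D5:**
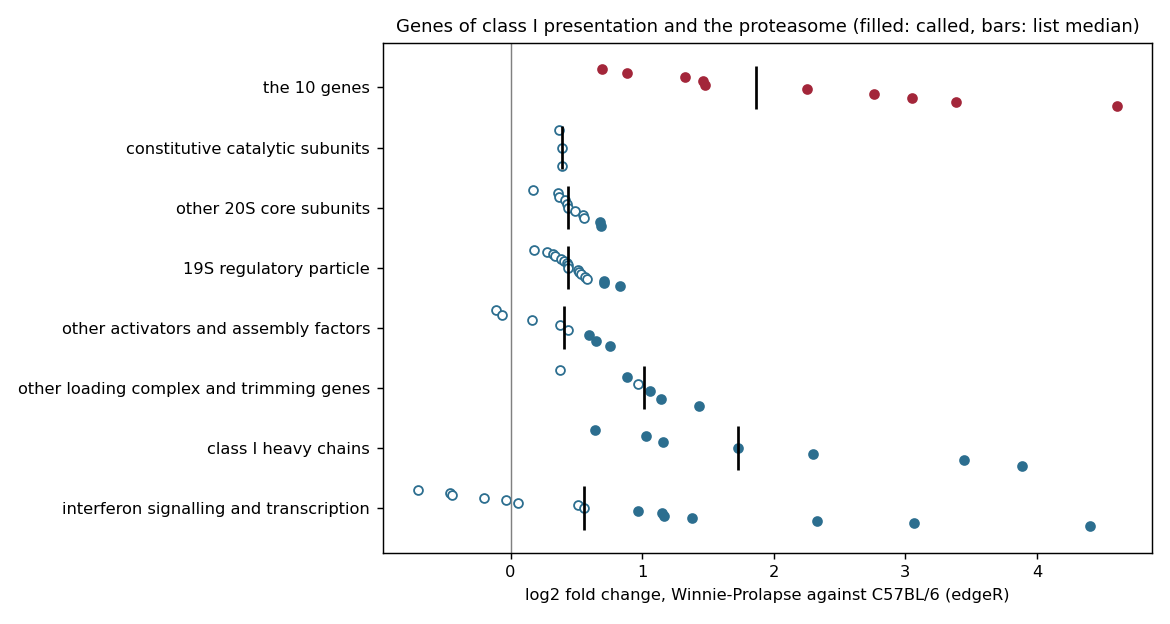
Log2 fold change of each gene tested in Winnie-Prolapse against C57BL/6 (edgeR), by list, with the 10 genes on top (red) and the other lists in blue. Filled points were called, bars mark list medians, and Ifng is not drawn. The constitutive catalytic subunits centre on 0.39 and the class I heavy chains on 1.73.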

How the data were processed

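Distal colon RNA of 22 mice was sequenced by the authors as stranded, paired-end libraries of poly(A) RNA. The authors ran the RNAsik pipeline on GRCm38 and deposited raw read counts per gene from featureCounts, as whole numbers with no normalization; the submitters' processing notes also name STAR and limma. The annotation release, the strand setting and how reads of more than 1 gene were treated are not given in the sources used here. Library totals are printed with the results. The limit at 3 counts covers only the error of counting, as no molecular identifiers were used.

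The 10 genes and the lists of other genes were chosen with earlier results of these data known. Testing of the deposited counts used edgeR 4.0.16 under R 4.3.3 (quasi-likelihood, TMM, filterByExpr, Benjamini-Hochberg adjustment over all genes tested), on the 2 groups compared. Calls needed an adjusted p under 0.001 and at least 1.5-fold, the interaction an adjusted p under 0.05. Log2 CPM had a prior count of 2. Correlations had two-sided exact permutation p-values. Named genes outside the 10 were the constitutive subunits, Ifng, Irf1, in each list the 3 most abundant genes and the 2 with the smallest p in Winnie-Prolapse against C57BL/6, and the 5 genes most like the 10; 1 gene under this rule is not reported here. Psme2b was added after its values were seen. Lengths were the union of exons in GENCODE M21. All 7 libraries labelled Winnie were used, although the study's methods name fewer Winnie mice for colon RNA, and which library was not among them is not given in the sources used here. Groups and sexes came from the sample labels, which name no batch, and replicate numbers followed the sample list. No library was counted as a duplicate (lowest chi-square per degree of freedom 28.8). Alternatives were other scaling, filters, tools (DESeq2 1.42.0, limma-voom 3.58.1), a sex covariate, a joint fit of the 3 groups, another threshold and leaving out each library. Only the edgeR test of 2 groups was tried on simulated counts, not the sex models, DESeq2 or limma-voom, and its outcome is not printed here.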

Additional observations from a re-analysis of the deposited data

Results flagged for a closer look

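Of 30 sets of libraries, 1 for each of the 10 genes in each group, 2 had an extreme library by Dixon's ratio at 95%, which chance passes in about 1 of 20. Psmb8 in Winnie-Prolapse was highest in replicate 5, at 217 CPM against 160.3 CPM in the next library. Psmb9 in C57BL/6 was lowest in replicate 3, at 9.74 CPM against 12.7 CPM in the next. No interaction of sex with group passed its test for any of the 10 genes by edgeR.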

How the results depend on the processing

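The 10 genes called in Winnie-Prolapse against C57BL/6 and the 0 called against Winnie did not depend on scaling, tool, filter, sex covariate, joint fit, threshold, the milk protein genes or any single library. In Winnie against C57BL/6 the count of 1 became 0 with library size without TMM, with limma-voom and with sex as a covariate, 3 with no low-count filter, 7 with all 3 groups in one fit, 8 with DESeq2 and 9 at an adjusted p under 0.05, and 0 to 8 with 1 library left out. The 27 other pathway genes called higher in Winnie-Prolapse against C57BL/6 ranged from 24 to 31 over all alternatives, and the 0 called lower became 1, Rfxank, under 7 of them. In Winnie against C57BL/6 the 0 other pathway genes became 8 in the joint fit, 16 with DESeq2, 17 at an adjusted p under 0.05 and 0 to 15 with 1 library left out. Against Winnie the 0 in Winnie-Prolapse became 1 with DESeq2 and 2 at an adjusted p under 0.05. The causes were not tested. Correlations with Ifng and Ptprc passed for 0 to 1 pairs with 1 library left out, pairs of the 10 genes for 0 to 1 in C57BL/6 (1 with TMM factors) and 2 to 8 in Winnie-Prolapse. Log2 values that changed sign were near 0: Psmb1 in Winnie without TMM (-0.035), and with 1 library left out Ifngr1 (-0.086 to 0.041) and Ifngr2 (-0.13 to 0.0014) in Winnie, and Psma1 in Winnie-Prolapse against Winnie (-0.063 to 0.071). Of 740 alternative values for the 10 genes, 0 changed direction, 16 lost and 32 gained a call. The alternatives on the milk protein genes, gene length, Psme2b and pairs of genes were chosen after seeing the data. No paired analysis was possible because replicate numbers only follow the sample list.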
